A study of Homo sapiens with 6 samples.

Results

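The genes described here are *MSTN*, which encodes myostatin, 8 further ligands of the TGF-beta superfamily (*GDF11*, *INHBA*, *INHBB*, *TGFB1*, *TGFB2*, *TGFB3*, *BMP2* and *BMP4*) and *FST*, which encodes the secreted antagonist follistatin. They were taken by gene symbol, 10 of the 58735 genes in the count table. The cells were H2452, a line of pleural mesothelioma grown in RPMI-1640 with serum, and the series is made of 3 sgCtrl and 3 sg*NF2*-1 RNA libraries. Both groups carried the same lentiviral vector, which expresses Cas9 and mCherry with an sgRNA, and infected cells had been sorted by mCherry. The sgRNA was scrambled in sgCtrl and directed at *NF2* in sg*NF2*-1. The labels do not say whether replicates came from separate infections or cultures, so p-values measure the spread between these libraries, which may be technical. *MSTN* was picked out because it differed between these same groups. The differences of the 10 genes are therefore given as a description, with no test.

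Ligands of this superfamily are made as precursors that form dimers, are cut by proprotein convertases and, in many cases, stay latent until the propeptide is released. They bind pairs of type II and type I receptor kinases at the cell surface. TGF-beta, activins, myostatin and GDF11 act mainly through SMAD2 and SMAD3, and BMPs through SMAD1, SMAD5 and SMAD9, with SMAD4 as the common partner. Myostatin is best known as a product of skeletal muscle that limits muscle growth, and GDF11 is its closest relative. *NF2* encodes merlin, an upstream regulator of the Hippo pathway that is often lost in mesothelioma.

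The sequences before the starts of *MSTN* and *GDF11* are shown because these related genes differed in opposite directions. They are the 250 bases just upstream of the RefSeq transcription start in GRCh38.p14, 5′ to 3′ on the strand of the gene. Capitals mark TATAAA and CCAAT, the letters of the TATA and CCAAT boxes, and CTGACGACAC, the longest run of bases that the 2 windows share. *MSTN* is on the minus strand (chr2:190062730-190062979) and *GDF11* on the plus strand (chr12:55742872-55743121).
MSTN: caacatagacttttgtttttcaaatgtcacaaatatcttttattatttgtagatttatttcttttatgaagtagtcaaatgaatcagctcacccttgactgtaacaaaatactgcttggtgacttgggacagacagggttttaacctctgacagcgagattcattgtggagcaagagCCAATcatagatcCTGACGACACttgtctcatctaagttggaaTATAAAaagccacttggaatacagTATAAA
GDF11: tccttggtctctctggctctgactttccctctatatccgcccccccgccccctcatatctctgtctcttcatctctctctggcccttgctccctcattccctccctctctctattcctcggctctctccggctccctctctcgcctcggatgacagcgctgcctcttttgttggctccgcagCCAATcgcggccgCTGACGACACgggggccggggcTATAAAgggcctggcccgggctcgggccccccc

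In both windows a CCAAT box came first, the shared run next and a TATA box last. In *MSTN* the CCAAT box began 73 bases before the start, the shared run 60 bases and the TATA boxes 30 and 6 bases. In *GDF11* these positions were 68, 55 and 33 bases. The shared run was searched for after it had been found in these 2 windows. On either strand it was in 13 of 35116 RefSeq promoter windows (0.0370%), whereas TATAAA was in 10.7% and CCAAT in 32.0% of them. Other letters searched on both strands were CANNTG (the E-box bound by basic helix-loop-helix factors, in 61.8% of windows), TGANTCA (AP-1, 6.57%), GGAATG (the core bound by TEAD factors, 11.9%) and TGATGCAA (an amino acid response element core, 0.772%). The *MSTN* window held CANNTG 4 times, 1 of them overlapping the shared run, and TGANTCA once, overlapping no TATAAA or CCAAT. The *GDF11* window held GGAATG once, on the opposite strand, 156 bases before the start. The *MSTN* window had 35.2% G and C and the *GDF11* window 64.4%.

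Total counts ranged from 14782423 to 17416463 per library. Levels of a gene between libraries are given as CPM, counts scaled to the TMM-adjusted size of the library, and levels between genes as the deposited FPKM, which is also divided by gene length. The targeted gene *NF2* was lower in sg*NF2*-1 in all 3 libraries (71.4 ± 3.36 CPM in sgCtrl and 44.2 ± 6.77 in sg*NF2*-1, SD, n = 3). This RNA level does not measure loss of the protein, and the authors assessed the knockout by western blot. Of 10 mesothelial markers, 8 could be tested, and all 10 had counts. *MSLN* (mesothelin) rose, *WT1*, *KRT19* and *PDPN* fell, and the summed list spanned 3264 to 3680 CPM in sgCtrl and 2862 to 3515 CPM in sg*NF2*-1. In a bulk sample, fewer cells of one type and less RNA per cell cannot be told apart. Of 12 skeletal muscle markers, 6 had 0 counts in every library, among them *MYOD1*, *MYF5* and *PAX7*, which define muscle precursors, and *MYOG* had 1 count in all. The summed muscle list was 3.90 to 5.20 CPM in sgCtrl and 2.67 to 3.24 CPM in sg*NF2*-1, most of it from *MYH3*, which fell. Of 5 markers of other cell types, *PTPRC* (leukocytes) was at 0 in every library. Of the endothelial markers, *PECAM1* fell, with 83 to 117 counts per library in sgCtrl and 16 to 26 in sg*NF2*-1, and *CDH5* had 9 to 22 and 14 to 24 counts and no call. *CD68* (macrophages) had 1 to 5 and *EPCAM* (epithelium) 0 to 9 counts per library, too few to be tested. The summed list was 6.39 to 8.71 CPM in sgCtrl and 2.44 to 3.56 CPM in sg*NF2*-1.

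*MSTN* transcripts were near zero in sgCtrl and present in every sg*NF2*-1 library. *MSTN* (ENSG00000138379, hg38, chr2:190055697-190062729, minus strand) had 2, 0 and 0 counts in sgCtrl replicates 1 to 3, and 29, 32 and 32 counts in sg*NF2*-1. All 3 sg*NF2*-1 libraries were far above all 3 sgCtrl libraries, and the sg*NF2*-1 libraries lay close together at 1.65, 2.07 and 2.25 CPM. The ratio of the scaled counts, 93 against 2, was 46.6 (95% exact interval 12.5 to 390.3). Intervals of this kind, here Clopper-Pearson intervals of the shares behind the ratios, cover counting error only. The lower counts rest on 1 library. Without sgCtrl replicate 1 the control is at 0, and *MSTN* was at least 20.7-fold higher by a floor of 3 counts over the group. Without sgCtrl replicate 2 the ratio was 30.4.

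*MSTN* shares little with other genes in the annotation. It has 1 annotated transcript with 3 exons and lies inside *C2orf88* on the opposite strand, with no *C2orf88* exon over it. *C2orf88* had 5, 15 and 10 counts in sgCtrl and 14, 3 and 12 in sg*NF2*-1, with no clear order between the groups. None of the 2792 runs of 31 bases in the *MSTN* transcript occurred in a transcript of another gene. Of the 8645 such runs of *GDF11*, 485 occurred in other genes, 351 of them in *SARNP*, and none in another of the 10 genes. The sources used here do not say whether counting used strand.

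*GDF11* was lower in the sg*NF2*-1 libraries, opposite to *MSTN*. *GDF11* had 117, 159 and 114 counts in sgCtrl and 85, 90 and 87 in sg*NF2*-1, or 8.21 ± 1.28 against 5.59 ± 0.673 CPM (SD, n = 3). The groups did not overlap, and the sgCtrl library nearest to the sg*NF2*-1 libraries stood at 7.42 CPM against their highest of 6.11. Its ratio was 0.673 (0.573 to 0.789), and its fitted log2 fold change was -0.56 (SE 0.18), just past the limit of 0.5 used below. It was inside the limit without sgCtrl replicate 2 (-0.42) or sg*NF2*-1 replicate 1 (-0.46). The gene overlaps *SARNP* and *AC023055.1* on the opposite strand, which had 0 to 10 and 0 to 3 counts per library. These counts do not show how far the overlap affects the counts of *GDF11*.

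*INHBA* encodes the subunit of activin A, and *INHBB* that of activin B. *INHBA* had 15, 16 and 32 counts in sgCtrl and 72, 49 and 41 in sg*NF2*-1, or 1.34 ± 0.661 against 3.38 ± 0.632 CPM (SD, n = 3). Replicate 3 was the highest sgCtrl library and the lowest sg*NF2*-1 library, at 2.11 and 2.88 CPM, so the gap between the groups was small beside their spread. The ratio was 2.58 (1.91 to 3.50) and the log2 fold change 1.34 (SE 0.32). *INHBB* had 3, 2 and 6 counts in sgCtrl and 0, 7 and 0 in sg*NF2*-1. These overlap, and the ratio of 0.637 (0.210 to 1.80) sets no direction. It was 1.02 without sg*NF2*-1 replicate 1, and replicate 2 held all the sg*NF2*-1 counts.

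*TGFB1*, the ligand with most transcripts among the 10 genes, was lower in sg*NF2*-1. It had 2168, 2247 and 1897 counts in sgCtrl and 1540, 1615 and 1571 in sg*NF2*-1, or 133 ± 7.06 against 101 ± 11.9 CPM (SD, n = 3). The groups did not overlap, and the log2 fold change was -0.40 (SE 0.09). *TGFB1* overlaps *HNRNPUL1*, *CCDC97* and *TMEM91* on the opposite strand, and 158 of its 3244 runs of 31 bases also occur in *HNRNPUL1*. *HNRNPUL1* had a log2 fold change of 0.16 and *CCDC97* of 0.74, opposite in sign to that of *TGFB1*, and *TMEM91* had -0.33, of the same sign. Without strand the reads of overlapping exons cannot be told apart.

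*TGFB2* and *TGFB3* encode the other TGF-beta isoforms. *TGFB2* had 171, 201 and 186 counts in sgCtrl and 244, 225 and 156 in sg*NF2*-1, where replicate 3 lay among the controls. Its ratio was 1.12 (0.999 to 1.26). Of the 5181 runs of 31 bases in *TGFB2*, 1341 also occur in *TGFB2-OT1*, which overlaps it on the same strand and had 0 counts in every library. Reads over both genes cannot be told apart, so these 0 counts say little about *TGFB2-OT1*. *TGFB3* had 20, 22 and 23 counts in sgCtrl and 15, 10 and 16 in sg*NF2*-1, or 1.38 ± 0.127 against 0.875 ± 0.239 CPM (SD, n = 3). Its groups did not overlap, its ratio was 0.632 (0.417 to 0.948) and its log2 fold change was -0.65 (SE 0.39). *TGFB3* overlaps *IFT43* on the opposite strand, which had 286 to 375 counts per library.

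*BMP2* and *BMP4*, ligands of the SMAD1, SMAD5 and SMAD9 branch, were at a few counts. *BMP2* had 2, 2 and 3 counts in sgCtrl and 1, 8 and 3 in sg*NF2*-1, a ratio of 1.72 (0.623 to 5.15) that was 0.852 without sg*NF2*-1 replicate 2. *BMP4* had 12, 13 and 8 counts in sgCtrl and 4, 14 and 8 in sg*NF2*-1, a ratio of 0.789 (0.453 to 1.36). In both genes the sg*NF2*-1 libraries spread on either side of the sgCtrl libraries. *FST*, whose product binds activins, myostatin and GDF11, had 7, 1 and 1 counts in sgCtrl and 1, 6 and 5 in sg*NF2*-1. Its groups overlapped as well, with a ratio of 1.34 (0.516 to 3.59) that was 4.01 without sgCtrl replicate 1. At this depth no difference was detectable in *INHBB*, *BMP2*, *BMP4* or *FST*.

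Of the 10 genes, 7 passed the expression filter, and *INHBB*, *BMP2* and *FST* did not. *MSTN* passed only through the group in which it is high. At the thresholds used for all genes, which are 0.05 for the adjusted p and 0.5 for the size of the log2 fold change, 2 of the 7 were past the thresholds as higher (*MSTN* and *INHBA*), beside 8.42% of all tested genes, and 1 as lower (*GDF11*), beside 9.32%. In either direction these thresholds called 17.7% of all tested genes. Groups did not overlap in *MSTN* and *INHBA*, with sg*NF2*-1 above (23.2% of tested genes), and in *GDF11*, *TGFB1* and *TGFB3*, with sg*NF2*-1 below (22.2%), or 45.3% of tested genes in either direction. Nothing is read from these counts, since the genes were chosen on this contrast.

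**Figure D1:**
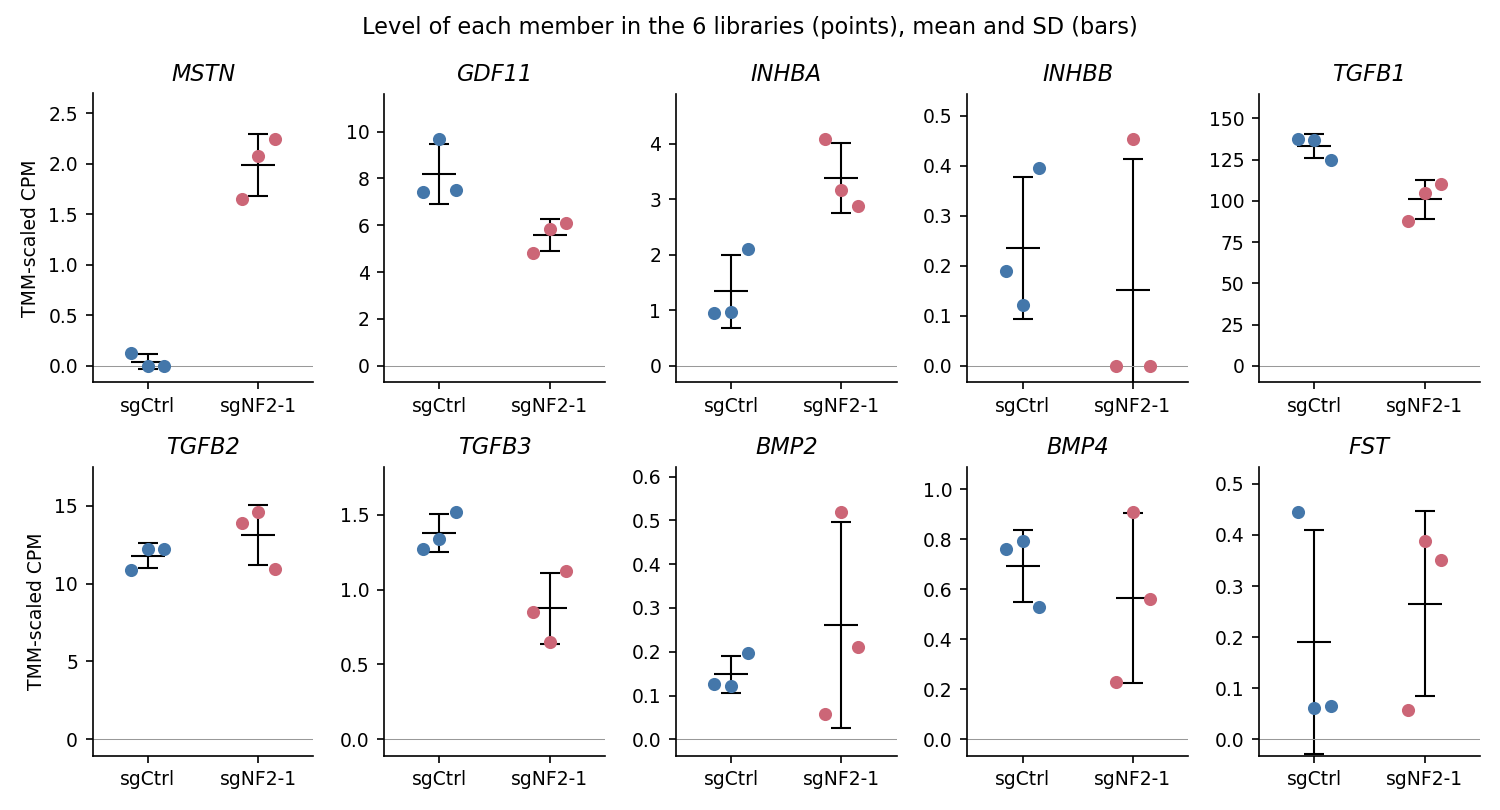
TMM-scaled CPM of the 10 genes in each library, with a scale of its own for each gene, sgCtrl in blue and sgNF2-1 in red. Points are libraries and bars show mean ± SD (n = 3). *MSTN* is at 0.127 CPM or less in sgCtrl and at least 1.65 CPM in sgNF2-1, *INHBA* is higher and *GDF11*, *TGFB1* and *TGFB3* lower without overlap, and the other 5 genes overlap.

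In FPKM, *TGFB1* led the 10 genes in both groups, at 39.0 ± 2.12 in sgCtrl and 29.2 ± 3.45 in sg*NF2*-1 (SD, n = 3). In sgCtrl it was followed by *TGFB2* (2.17 FPKM), *GDF11* (0.899 FPKM) and *TGFB3* (0.265 FPKM), each without overlap with the next. From *BMP4* (0.213 FPKM) down through *INHBA*, *INHBB*, *FST* and *BMP2* to *MSTN* (0.014 FPKM), each gene overlapped its neighbour in the order. In sg*NF2*-1, *MSTN* stood just below *TGFB2*, at 0.662 ± 0.103 FPKM, and could not be told from *GDF11* at 0.606 ± 0.0731 FPKM (SD, n = 3). *INHBA* came next at 0.383 FPKM, above *BMP4* and *TGFB3*, which overlapped at 0.172 and 0.167 FPKM. *FST*, *BMP2* and *INHBB* were the lowest, each overlapping its neighbour. So the *MSTN* level of sg*NF2*-1 cells was close to that of *GDF11* and far below that of *TGFB1*. *MSTN* made up 1.85% to 2.07% of the summed FPKM of the 9 ligands in sg*NF2*-1.

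Among 33 superfamily ligands, the 9 above and 24 others, the main ligand transcript changed from *TGFB1* to *GDF15*. *TGFB1* took 51.0% to 54.0% of their summed FPKM in the sgCtrl libraries and 25.7% to 29.3% in sg*NF2*-1. *GDF15*, a stress-induced ligand that signals through GFRAL rather than the SMAD receptors, took 13.8% to 15.7% and then 51.0% to 54.6%. *GDF5*, a BMP-like ligand, took 20.9% to 22.7% and then 10.2% to 12.7%. The sum itself was 71.6 to 78.3 FPKM in sgCtrl and 98.5 to 112.8 FPKM in sg*NF2*-1. The shares of *TGFB1* and *GDF5* therefore fell by more than their levels did. *GDF15* had 428, 371 and 362 counts in sgCtrl and 2029, 2106 and 1765 in sg*NF2*-1, a log2 fold change of 2.35 (SE 0.10, edgeR adjusted p = 5.04e-15).

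The other genes of the pathway were taken from 8 lists with 116 genes in all, of which 81 passed the filter. Of these, 10 rose (12.3%, beside 8.42% of all tested genes) and 24 fell (29.6%, beside 9.32%), with a median log2 fold change of -0.22 against -0.0025 over all tested genes. The lists were chosen with earlier results of these data known, so these shares are a description and not a test. Among 24 other ligands, 9 had 0 counts in every library and 7 could be tested. *GDF15* and *INHBE* rose and none fell by edgeR or DESeq2, while *INHA* and *AMH* were lower at an unadjusted p under 0.05 with the same fold limit. *AMH* passed both thresholds without sgCtrl replicate 2 (-0.73) or sgCtrl replicate 3 (-0.65). *INHBE* encodes the activin E subunit, and went from 11, 16 and 15 counts in sgCtrl to 89, 68 and 45 in sg*NF2*-1, with no overlap (log2 fold change 2.24, SE 0.31, edgeR adjusted p = 3.35e-06). *GDF5* went from 45.0 ± 1.17 to 34.8 ± 2.19 CPM (SD, n = 3), inside the fold limit, and *INHA*, *BMP8B*, *AMH* and *GDF9* did not pass the adjusted p. With at least 10 counts in every library *INHA* passed both thresholds (-0.82). The median of this list was -0.37.

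None of the 8 tested receptors out of 12 passed both thresholds by edgeR or DESeq2, or with an unadjusted p, and the median of the list was -0.12. By the adjusted p alone 3 were lower, which are *TGFBR2*, *BMPR1A* and *BMPR2*, and *BMPR1A* passed both thresholds without sgCtrl replicate 1 (-0.52) or sg*NF2*-1 replicate 1 (-0.50). The type II receptors of activins and myostatin, *ACVR2A* and *ACVR2B*, had 63 to 98 and 35 to 69 counts per library, with log2 fold changes of 0.07 (SE 0.20) and 0.08 (SE 0.27). The type I receptors for the same ligands were *ACVR1B*, with 0.20 (SE 0.11), and *TGFBR1*, with -0.32 (SE 0.14), both log2 fold changes that did not pass the adjusted p. These 4 were named for their role and not by size. *TGFBR2*, the type II receptor of TGF-beta and the most abundant of the list, went from 285 ± 11.8 to 207 ± 7.96 CPM (SD, n = 3). Its log2 fold change of -0.46 (SE 0.08, edgeR adjusted p = 5.7e-05) was inside the fold limit, as were those of the BMP receptors *BMPR1A* (-0.46) and *BMPR2* (-0.39). *ACVR1*, another BMP type I receptor, had 0.07 (SE 0.09). Of 6 coreceptors and decoys, 4 were tested. *TGFBR3* (betaglycan, which presents TGFB2 and binds inhibin) fell from 185, 177 and 182 counts to 122, 93 and 80 (log2 fold change -0.89, SE 0.16, edgeR adjusted p = 8.84e-05). *BAMBI*, a decoy receptor that lacks the kinase, rose from 117, 123 and 133 counts to 194, 193 and 148 (log2 fold change 0.52, SE 0.15, edgeR adjusted p = 0.00969). That call was lost, at a log2 fold change of 0.45 to 0.50, with library totals in place of TMM and without sgCtrl replicate 1, sgCtrl replicate 2 or sg*NF2*-1 replicate 2. *ENG*, the endoglin coreceptor, had -0.40 and was lower by the adjusted p alone, and *RGMB*, a BMP coreceptor, had 0.12.

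All 15 SMADs and SMAD regulators were tested, with 1 higher, 1 lower and a median of 0.15. The receptor-activated SMADs of the activin branch, *SMAD2* and *SMAD3*, had log2 fold changes of 0.15 (SE 0.09) and 0.14 (SE 0.08), and *SMAD5* of the BMP branch had 0.03 (SE 0.08). *SMAD4* had 0.21 (SE 0.08) and was higher by the adjusted p alone. *SMAD6*, an inhibitory SMAD of the BMP branch, fell from 36, 64 and 63 counts to 24, 13 and 8, with no overlap (log2 fold change -1.86, SE 0.35, edgeR adjusted p = 0.000187). *SMAD7*, the inhibitory SMAD of both branches, had 0.15 (SE 0.12). *SMURF2*, a ubiquitin ligase for SMADs and receptors, rose (log2 fold change 0.58, SE 0.10, edgeR adjusted p = 0.000118), to 0.49 and no call without sgCtrl replicate 1.

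Of 17 secreted antagonists, 11 were tested, with 1 higher, 4 lower and a median of -0.39. *FSTL3*, a follistatin-like protein that binds activins and myostatin, rose from 959, 964 and 805 counts to 2189, 1856 and 1886, or from 57.5 ± 4.03 to 126 ± 6.2 CPM (SD, n = 3). The groups were far apart (log2 fold change 1.13, SE 0.09, edgeR adjusted p = 2.97e-10). *FSTL3* stood at 38.5 FPKM in sg*NF2*-1 against 0.662 FPKM for *MSTN* and 0.084 FPKM for *FST*. The BMP antagonists *CHRDL2* (log2 fold change -1.41, SE 0.24), *GREM1* (-0.98, SE 0.21) and *CHRD* (-0.67, SE 0.13) fell, with edgeR adjusted p-values of 6.02e-05, 0.000691 and 0.000336. *FSTL1*, a follistatin-related glycoprotein, fell from 920 to 572 CPM. *NOG*, *TWSG1*, *NBL1* and *BMPER*, other BMP-binding proteins, had log2 fold changes of -0.40 to -0.02 and no call. By the adjusted p alone, *NOG* and *TWSG1* were lower, and *NBL1* and *BMPER* did not pass.

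The list on latency and activation had 15 tested genes of 19, with 2 higher, 6 lower and a median of -0.38. *PCSK6*, a proprotein convertase, rose from 17, 25 and 8 counts to 64, 56 and 34 (log2 fold change 1.61, SE 0.35, edgeR adjusted p = 0.000764). *FURIN*, the convertase with most reads, had -0.38 and no call, and *BMP1*, the protease that cuts the myostatin propeptide, -0.45 and no call. Both *FURIN* and *BMP1* were lower by the adjusted p alone. *LTBP1*, a latent TGF-beta binding protein, rose by 0.79 (SE 0.25) on the log2 scale, which dropped to 0.54 and no call without sg*NF2*-1 replicate 3. *ITGAV* and *ITGB8*, the subunits of an integrin that activates latent TGF-beta, fell (log2 fold changes of -0.57, SE 0.08, and -1.12, SE 0.27). *THBS1*, a secreted activator of latent TGF-beta, fell as well (-0.69, SE 0.11). *MMP2*, a matrix protease, fell from 1605, 1775 and 1681 counts to 310, 270 and 231 (log2 fold change -2.64, SE 0.10, edgeR adjusted p = 7.81e-16). *LTBP3*, the *LTBP* gene with most reads, fell from 282 to 197 CPM (log2 fold change -0.52, SE 0.09), just past the fold limit. *LTBP2* and *LTBP4* had -0.20 and -0.18 and no call.

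**Figure D2:**
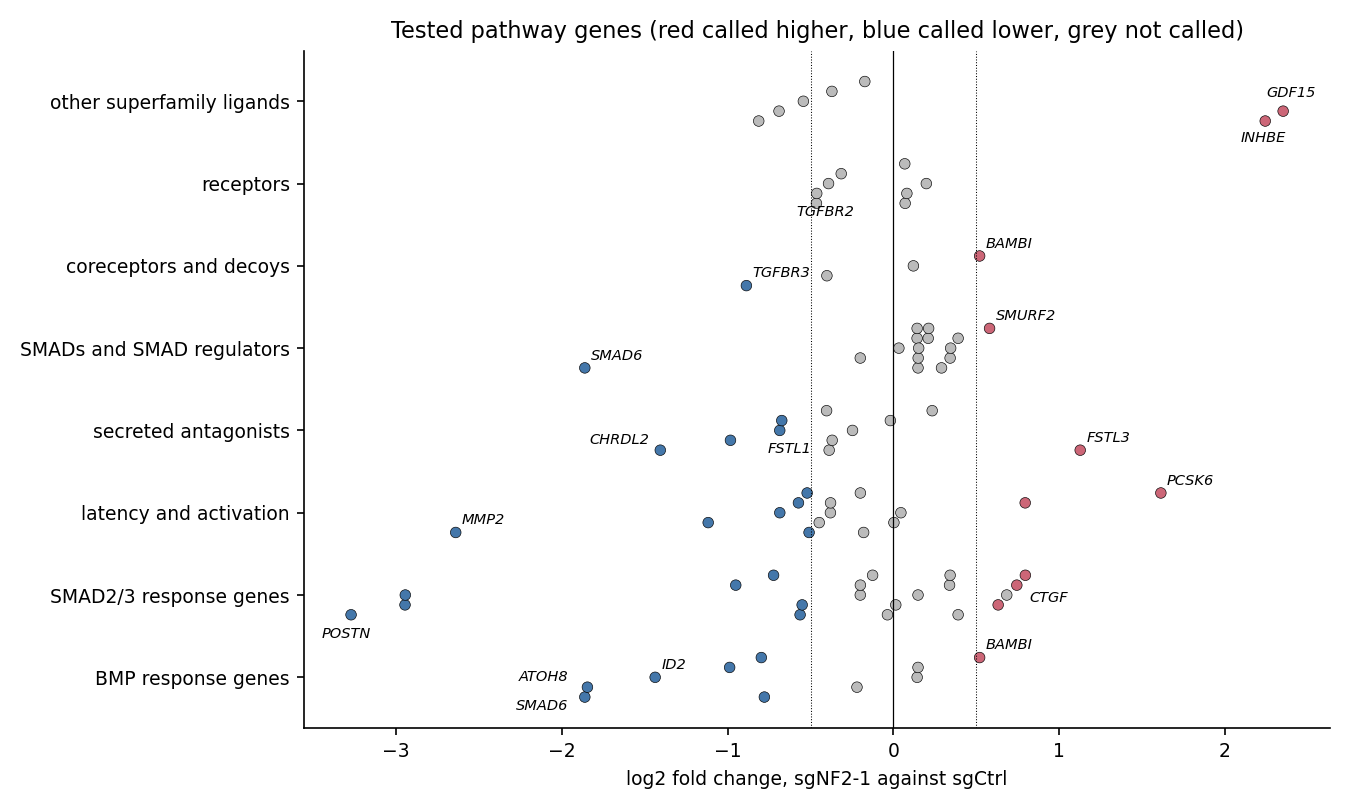
Log2 fold change (sgNF2-1 against sgCtrl) of the tested genes of the 8 pathway lists, 1 point a gene, with dotted lines at the fold limit of 0.5. Red points rose, blue points fell and grey points passed no call, and a gene on several lists appears in each. No receptor is coloured, and 6 of 10 BMP response genes are blue.

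Genes known to respond to SMAD2 and SMAD3 split in both directions. All 20 were tested, 3 rose, 7 fell and the median was -0.08. *POSTN* (periostin) fell by 3.27 on the log2 scale, from 237, 259 and 244 counts to 27, 23 and 26. The collagen genes *COL1A2* and *COL1A1* fell alike, with log2 fold changes of -2.95 each and edgeR adjusted p-values of 2.24e-15 and 3.96e-09. *TGFBI*, a matrix protein named for its induction by TGF-beta, fell from 1432 to 740 CPM. *SNAI2*, *CTGF* and *SPHK1* rose. *CTGF*, which is also a textbook target of YAP, went from 805, 832 and 648 counts to 1270, 1499 and 1037 (log2 fold change 0.74, SE 0.11, edgeR adjusted p = 7.57e-06). *SNAI2* had 0.80 (SE 0.26), and its call was lost without sgCtrl replicate 2, sg*NF2*-1 replicate 1 or sg*NF2*-1 replicate 2. *JUNB*, *SMAD7* and *TGIF1* had no call, and of these *TGIF1* was higher by the adjusted p alone.

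Of the 12 BMP response genes, 10 were tested, 1 rose, 6 fell and the median was -0.79. The genes that fell included all 4 *ID* genes, inhibitors of basic helix-loop-helix factors and common readouts of SMAD1, SMAD5 and SMAD9. *ID2* fell from 1209, 1338 and 1469 counts to 588, 401 and 494 (log2 fold change -1.44, SE 0.11, edgeR adjusted p = 3.01e-10). *ID1* (-0.78, SE 0.10) and *ID3* (-0.80, SE 0.12), which were named for their role, fell with no overlap between groups. *ID4* fell by 0.99 on the log2 scale (SE 0.33), at 32, 41 and 33 counts against 19, 17 and 17, and its call was lost without sgCtrl replicate 2, sg*NF2*-1 replicate 1 or sg*NF2*-1 replicate 2. *ATOH8*, a helix-loop-helix factor, fell from 264, 272 and 298 counts to 85, 62 and 84 (log2 fold change -1.85, SE 0.16, edgeR adjusted p = 2.32e-09), and *SMAD6* is on this list too. *BAMBI* was the 1 gene that rose. *MSX1*, *SMAD7* and *SMAD9* had log2 fold changes of -0.22, 0.15 and 0.14 and overlapping groups. These are RNA levels, and SMAD phosphorylation was not measured here.

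**Figure D3:**
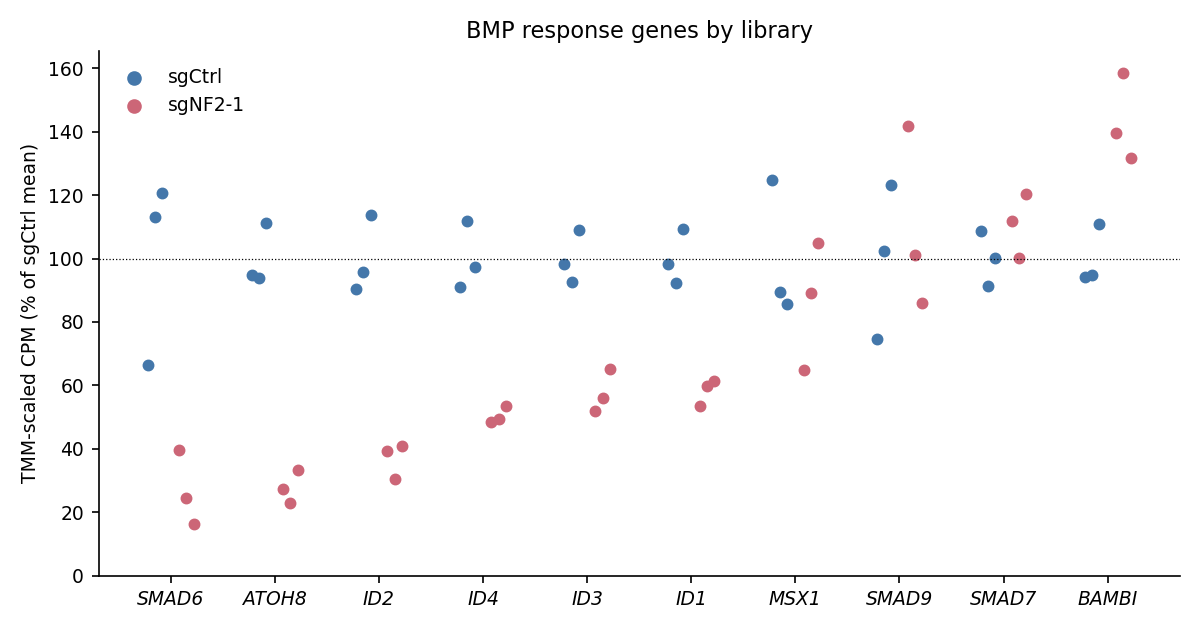
TMM-scaled CPM of the 10 tested BMP response genes in each library, as a percent of the sgCtrl mean of the gene (dotted line at 100), sgCtrl in blue and sgNF2-1 in red. The sgNF2-1 libraries lie at 16.3% to 39.6% in *SMAD6*, 22.8% to 33.4% in *ATOH8*, 30.6% to 40.8% in *ID2* and 53.6% to 61.5% in *ID1*, all below the sgCtrl libraries, whereas *BAMBI* lies at 132% to 158%.

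The genes around *MSTN* had far smaller log2 fold changes. Within 500 kb of it, the table holds 20 other genes, of which 11 were tested. *INPP1*, an inositol phosphatase (log2 fold change 0.65, SE 0.10), and *ASNSD1* (0.51, SE 0.11) rose, where 8.42% of all tested genes did. None fell, the median was 0.23 and the range -0.33 to 0.65. By the adjusted p alone, *PMS1* (log2 fold change 0.44, SE 0.11) and *ORMDL1* (0.24, SE 0.08) were higher as well. The call of *ASNSD1* was lost with library totals and without sgCtrl replicate 1, sgCtrl replicate 2 or sg*NF2*-1 replicate 2. The tested neighbours with the nearest starts were *HNRNPCP2*, a pseudogene, on one side, with a log2 fold change of -0.18 (SE 0.19), and on the other side *INPP1* and then *HIBCH*, an enzyme of valine breakdown, with -0.33 (SE 0.13).

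Count limits that *MSTN* itself meets were met by few other genes, and nothing is read from their number. With at most 3 counts in each sgCtrl library and at least 10 in each sg*NF2*-1 library, 7 genes were found, *MSTN* among them, and 2 genes showed the opposite pattern. By Euclidean distance of log2(CPM + 0.5) over the 6 libraries, the genes nearest to *MSTN* were *AC114980.1* (0.566), *HOXB9* (0.735), *UNC93B4* (0.785), *NPPB* (1.06) and *AL138828.1* (1.66). *HOXB9*, a homeobox factor, had 0, 2 and 2 counts in sgCtrl and 30, 27 and 22 in sg*NF2*-1. *NPPB*, which encodes B-type natriuretic peptide, had 2, 3 and 3 counts and 27, 20 and 18. *UNC93B4* is a pseudogene whose reads may be split with related copies, and *AC114980.1* and *AL138828.1* are noncoding genes within or opposite other genes, so their counts are uncertain. These genes were chosen by this pattern, on the same libraries.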

How the data were processed

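RNA from 3 sgCtrl and 3 sg*NF2*-1 libraries of H2452 cells was sequenced by the authors as 150 bp paired-end reads, and the groups and replicate numbers come from the sample titles. The authors deposited read counts per gene, without normalization, and FPKM values, which equal the count divided by gene length and by 1 depth per library in every gene checked, within 0.1%. The submitters' processing notes name HISAT2, StringTie 1.3.3b, featureCounts 1.5.0-p3 and hg38, with no role or order, and the authors used DESeq2. Whether counting used strand is not given in the sources used here.

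Genes with few counts were dropped by filterByExpr of edgeR (minimum count 10 and minimum total 15), and the 14179 that remained were scaled by TMM and fitted with edgeR's quasi-likelihood test of the group (R 4.3.3, edgeR 4.0.16, limma 3.58.1), with Benjamini-Hochberg adjustment over all tested genes. A gene was called at an adjusted p below 0.05 with a log2 fold change over 0.5 in size. Which libraries are replicates was taken from the labels, and library pairs within a group differed by a chi-square per degree of freedom of 5.13 to 12.6, so none is a duplicate. Ratios of low counts carry 95% exact intervals. Tested on simulated counts of the 14179 genes of this comparison, edgeR called 74 of 97 genes changed by a log2 fold change of 1, 95 of 95 changed by 2 and 2 of 13770 unchanged genes. Promoter windows came from RefSeq (GRCh38.p14).

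The 10 genes, the lists and the tests were chosen with earlier results of these data known. The text names the 10 genes, *NF2*, in each list up to 4 genes that rose, up to 4 that fell (by size) and up to 4 without a call (by level), genes within 500 kb of *MSTN*, and up to 5 genes nearest to it in pattern. *ID1*, *ID3*, *TGFBR1*, *ACVR1B*, *ACVR2A*, *ACVR2B*, *GDF9* and *LTBP3* fall outside this rule. One gene within the rule is left out of the text. Alternatives were the replicate number as a block, the removal of each library in turn, a DESeq2 1.42.0 fit, edgeR with DESeq2's size factors or with plain totals, 10 or more counts in all libraries or no filter, unadjusted p, no fold limit, log2(FPKM + 1), log2(FPKM + 0.1) and levels per length from the counts.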

Additional observations from a re-analysis of the deposited data

How the results depend on the processing

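Adjusted p-values without a fold limit gave 2515 higher and 2351 lower genes over all tested genes, in place of 1194 and 1322. In the other settings the counts over all genes and over all pathway genes stayed within 1.5 times. Over all settings, the one without a fold limit included, 23 of 224 counts of single lists moved by more than 1.5 times. Each of these was between 0 and 6 genes. Leaving out each library in turn gave 1082 to 1266 higher and 1140 to 1369 lower genes, and 8 to 10 higher and 22 to 24 lower pathway genes. The *MSTN* ratio was 30.4 to 51.2 in the 5 such settings that give one, and without sgCtrl replicate 1 only a bound could be had. The fitted log2 fold changes of the count-based settings were 4.78 to 7.97 for *MSTN*, 1.15 to 1.81 for *INHBA*, -0.63 to -0.42 for *GDF11* and -0.47 to -0.31 for *TGFB1*, with 1 sign each, whereas *BMP4* spanned -0.85 to 0.09. Same-numbered libraries correlated in their deviations from the group means at -0.038, 0.071 and 0.059, so the numbers do not pair them, and a replicate block gave 1186 higher and 1316 lower genes, with 10 and 24 among the pathway genes. Of 6 named genes with no call, the sign turned when 1 library was left out, with ranges of -0.37 to 0.084 for *BMP8B*, -0.15 to 0.087 for *BMPER*, -0.099 to 0.044 for *JUNB*, -0.091 to 0.32 for *SMAD9*, -0.051 to 0.20 for *ACVR2A* and -0.19 to 0.28 for *ACVR2B*. *SMAD6* and *PCSK6* were not tested with at least 10 counts in every library, since 1 library of each has 8. The causes were not tested. With 2 counts in the 3 control libraries, only the lower end of the *MSTN* interval is well set, and *INHBB*, *BMP2*, *BMP4* and *FST* are too low for a difference to be seen.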
